A study of Arabidopsis thaliana with 27 samples.

Results

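KIN2, COR15A, COR47, TIL and RD2 are 5 Arabidopsis genes named for cold, desiccation or temperature responses, out of 416 named genes on a small spotted cDNA array of stress-related transcripts. They were chosen by name and locus (AT5G15970, AT2G42540, AT1G20440, AT5G58070 and AT2G21620), with earlier results of these data known. Each has 2 spots on the array. All 5 had a value in every one of the 24 conditions, so all 5 were among the 180 named genes with enough values to be tested. No plant in the study was chilled or dried. The genes were followed instead through sprays with 6 defence-related agents.

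COR15A, KIN2 and COR47 belong to the cold-regulated genes of Arabidopsis. In the cold, CBF transcription factors bind their promoters and switch them on, and in drying tissue abscisic acid (ABA) acts on the same genes through other promoter elements. COR15A encodes a protein of the chloroplast stroma that protects membranes during freezing. KIN2 encodes a small hydrophilic protein made in cold and in response to ABA, and COR47 is a dehydrin, one of the hydrophilic proteins that accumulate as cells lose water. TIL, the temperature-induced lipocalin, is a plasma membrane protein needed for tolerance of heat and oxidative stress. RD2 is a desiccation-responsive gene whose product belongs to the universal stress protein family.

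Each array compared RNA of sprayed plants (Cy5) with RNA of untreated plants grown in parallel (Cy3), both from 28-day-old soil-grown plants of ecotype Columbia at 22 °C with 12 h of light and 12 h of dark. The sprays were 5 mM SA (salicylic acid), 1 mM INA and 0.5 mM BTH (synthetic activators of the SA response), 10 mM BABA (beta-aminobutyric acid, known for priming defences), ethephon at 1 mM (labelled ET, an ethylene source) and methyl jasmonate at 0.1 mM (MeJA, titled JA in the sample names). Harvests were at 2, 5, 10 and 24 h. The conditions with 2 arrays were BTH at 5 h and INA at 10 and 24 h, each pair being repeat arrays, and the other 21 conditions had 1 array. RNA came from plants pooled over replicate experiments, so each condition is 1 sample. The tests take the 4 times of an agent as its samples. For agent means, the SE and p-values rest on the spread left over all 24 conditions once agent means and a time course shared by the agents are fitted. That spread is not the scatter of an agent's 4 times, and it may be partly technical. KIN2 under ET, for example, had an SD of 1.66 over its 4 times and an SE of 0.30. Late-against-early tests use the spread left within each agent and phase (early or late).

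Sprayed plants were kept at high humidity and no mock spray is described, so an effect of spraying or humidity cannot be told apart from one of the agent in comparisons with untreated plants. The dyes were not swapped. Each value is a log2 ratio, treated over untreated, with the median spot of each array set to 0, and "higher" and "lower" are relative to that median. The sources name no base for the logarithm, and base 2 was assumed. The 27 arrays held 1204 to 2358 spots with a value, and their deposited medians ran from -0.76 to 1.49. When arrays were centred instead on TUA5, an alpha-tubulin gene with 54 spots, the median of the tested genes stood at 0.27 (BABA) to 1.405 (BTH), and without any centring it stood at 0.25 (MeJA) to 0.85 (SA). With median centring TUA5 itself was lower under BTH (-1.36), SA (-1.16), MeJA (-0.92) and INA (-0.88) (limma, adjusted p up to 9.5e-05). Under ET (-0.37) and BABA (-0.26) it did not pass. Leaf and root identity could not be checked, since a ratio holds no level and none of 9 leaf marker genes was among the named spots. PYK10, listed as a root and seed marker, could show only a shift against untreated plants. It was lower under SA (-1.20), INA (-1.19) and BTH (-1.40) and higher under MeJA (1.31) (limma, adjusted p up to 0.0065). Under BABA (-0.65) and ET (-0.13) it did not pass.

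The members fell into 3 patterns. Averaged over the 6 agents, KIN2, COR15A and COR47 had their highest ratio at 2 h and a lower one at each later harvest. TIL had its lowest average at 10 h (-1.59) and stood at -0.41 at 24 h. RD2 had its highest average at 5 h (0.18) and its lowest at 24 h (-0.69), and was lowest under MeJA at every harvest. The plot of ratios over time shows the 3 patterns side by side.

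**Figure D1:**
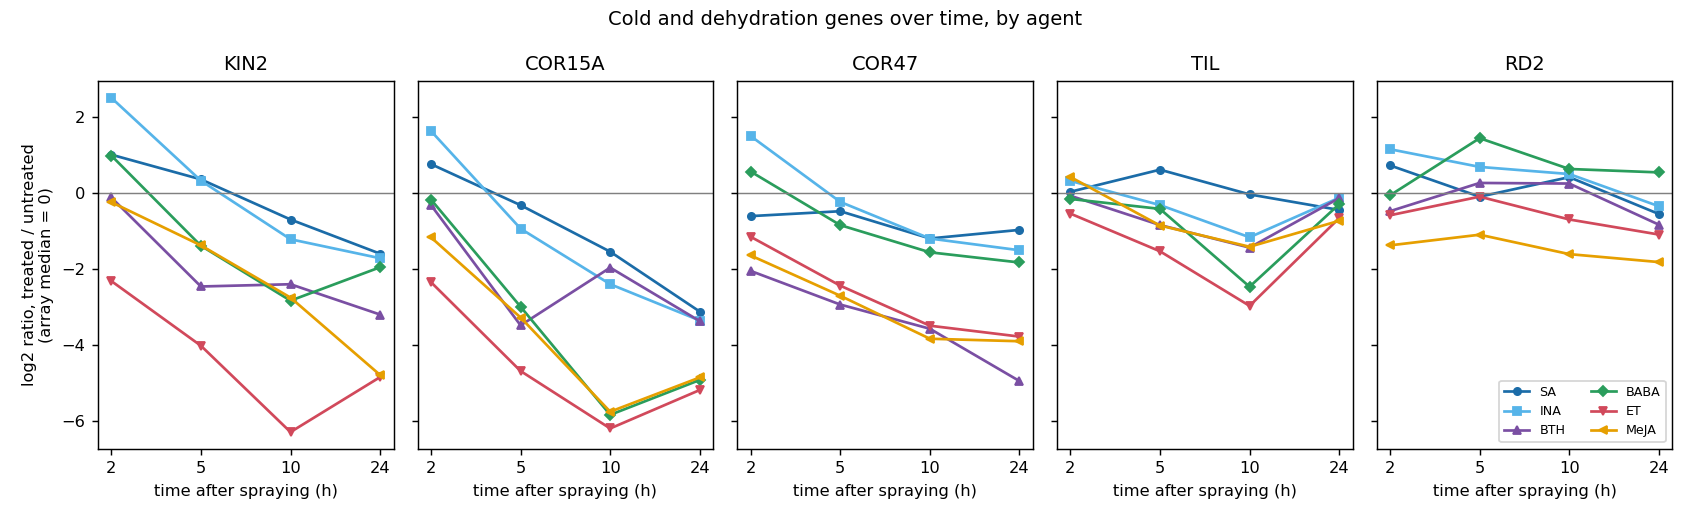
Log2 ratio of treated over untreated RNA (vertical axis, array median = 0) at 2, 5, 10 and 24 h after spraying (horizontal axis, evenly spaced) for the 5 genes, with 1 line per agent and 1 point per condition. KIN2, COR15A and COR47 run downwards, TIL has its lowest point at 10 h under 5 of 6 agents, and the MeJA line of RD2 lies below the others at all 4 times.

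KIN2 was followed first, as the small hydrophilic cold protein with the widest range. At 2, 5, 10 and 24 h its ratio was 1.00, 0.35, -0.71 and -1.60 under SA, and 2.4995, 0.32, -1.22 and -1.72 under INA. The same harvests gave -0.12, -2.47, -2.41 and -3.21 under BTH, and 0.98, -1.395, -2.84 and -1.96 under BABA. Under these 4 agents, and also under ET and MeJA, the 2 h value was the highest of the course. Of these 4, 3 began with KIN2 on the upper side of its array. Under ET the values were -2.32, -4.03, -6.30 and -4.85, and under MeJA -0.25, -1.39, -2.76 and -4.80. ET was the only agent with KIN2 more than 2 log2 units down at the first harvest.

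Against untreated plants the mean of KIN2 over the 4 times was -4.38 ± 0.30 under ET (SE of the fit, 4 times below 0 of 4), -2.30 under MeJA, -2.05 under BTH and -1.30 under BABA, with the same SE. All 4 were lower calls by limma (largest adjusted p = 0.00054, BABA). SA gave -0.24 and INA -0.03, with 2 of 4 times below 0 each, and neither passed (adjusted p = 0.491 and 0.924). In this order of agents, ET differed from MeJA by -2.08 ± 0.42 (adjusted p = 0.00079), while MeJA and BTH, and BTH and BABA, did not differ beyond their spread. BABA and SA differed by -1.07 ± 0.42 at the edge of the threshold (adjusted p = 0.049998, with 38.9% of tested genes differing between this pair), a call lost with 1 spread (-0.61) and after quantile normalization (-0.79). INA and SA differed by 0.21, with a 95% interval of -0.67 to 1.08. The KIN2 call under BTH was lost after centring on TUA5 (-0.69, adjusted p = 0.078), and the one under BABA when the model had no term for time (adjusted p = 0.133).

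COR15A, the chloroplast membrane protector, had the lowest mean of the 5 genes over all 24 conditions (-2.75). Its values at 2, 5, 10 and 24 h were 0.75, -0.33, -1.55 and -3.13 under SA, and 1.62, -0.95, -2.41 and -3.36 under INA. BTH gave -0.33, -3.49, -1.97 and -3.38, and BABA -0.18, -3.001, -5.85 and -4.93. Under all 4 agents the 2 h value lay within 2 log2 units of the median and the 24 h value more than 3 below it. ET gave -2.35, -4.69, -6.20 and -5.19, and MeJA -1.17, -3.28, -5.76 and -4.86. The ratio of COR15A was the lowest of all named genes with a value at 24 h of SA, INA and BABA and at 10 h of MeJA.

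The COR15A means were -4.61 ± 0.36 under ET, -3.77 under MeJA, -3.49 under BABA, -2.29 under BTH, -1.27 under INA and -1.06 under SA, each with this SE. All 6 passed, the weakest of them SA (limma, adjusted p = 0.0117, 3 of 4 times below 0). No neighbours in this order differed at the threshold. The closest to it were BABA and BTH, 1.20 ± 0.51 apart (adjusted p = 0.060). Agents further apart did differ, as ET and SA (-3.55 ± 0.51, adjusted p = 1.4e-05) or BABA and INA (-2.22 ± 0.51, adjusted p = 0.0051). The second of these was lost with arrays scaled to 1 spread (-1.05, adjusted p = 0.383) and after quantile normalization (-1.03, adjusted p = 0.393). The SA and INA calls rested on the 24 h harvest: without it the means were -0.38 and -0.58 (adjusted p = 0.451 and 0.240). Both calls were also lost in the deposited values, after centring on TUA5 (where the SA mean was 0.099) and without a term for time, and the SA call after scaling arrays to 1 spread.

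The 2 BTH arrays at 5 h bear on COR15A and KIN2 directly. They share their RNA, yet COR15A read -4.56 on the first and -2.42 on the second, and KIN2 -3.18 and -1.76. COR47 read -2.99 and -2.90 on the same arrays. Between those arrays the median absolute difference over 324 named genes was 0.41. With either array left out, COR15A under BTH had a mean of -2.02 or -2.56 and stayed past the threshold. The pairs of arrays for INA differed less for COR15A, by 0.74 at 10 h and by -0.39 at 24 h. KIN2 at INA 10 h rests on the second array alone, because both KIN2 spots were without a value on the first.

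COR47, the dehydrin, was more even over time and sorted the agents more sharply. Under SA it gave -0.62, -0.49, -1.20 and -0.98 at 2, 5, 10 and 24 h, and under INA 1.49, -0.24, -1.21 and -1.51. BABA gave 0.56, -0.85, -1.57 and -1.84. None of these 12 values reached -2. BTH gave -2.06, -2.94, -3.58 and -4.96, ET -1.16, -2.45, -3.50 and -3.79, and MeJA -1.65, -2.71, -3.84 and -3.91. From 5 h on, each value of BTH, ET and MeJA was below every value of SA, INA and BABA.

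The COR47 means were -3.38 ± 0.22 under BTH, -3.03 under MeJA, -2.72 under ET, -0.92 under BABA, -0.82 under SA and -0.37 under INA, with the same SE. All but the INA mean passed (INA adjusted p = 0.153). Among neighbours in this order only ET and BABA differed, by -1.80 ± 0.31 (limma, adjusted p = 7.6e-05, lower under ET at 4 of 4 times). Within the lower set ET and BTH differed by 0.66, with a 95% interval of 0.016 to 1.31 before adjustment and an adjusted p of 0.119. Centred on TUA5, the COR47 mean under SA was 0.34 (adjusted p = 0.115), and the BABA call was lost in the deposited values (-0.55, adjusted p = 0.160).

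COR15A and COR47 stood in opposite order under BABA and BTH at 3 of 4 times. COR15A minus COR47 was -0.74, -2.15, -4.28 and -3.09 at the 4 times of BABA, and 1.73, -0.55, 1.61 and 1.58 at those of BTH. BABA minus BTH was 2.46 ± 0.31 for COR47 (adjusted p = 1.9e-06, with 46.7% of tested genes differing) and -1.20 for COR15A, which did not pass. For COR15A it depended on the scaling: -0.066 with arrays scaled to 1 spread, -0.54 after quantile normalization and -1.13 in the deposited values, none called. On TUA5 it was -2.29 and passed (limma, adjusted p = 0.0011). The COR47 difference passed in each of these settings. The difference between the COR47 and COR15A differences was not tested.

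**Figure D2:**
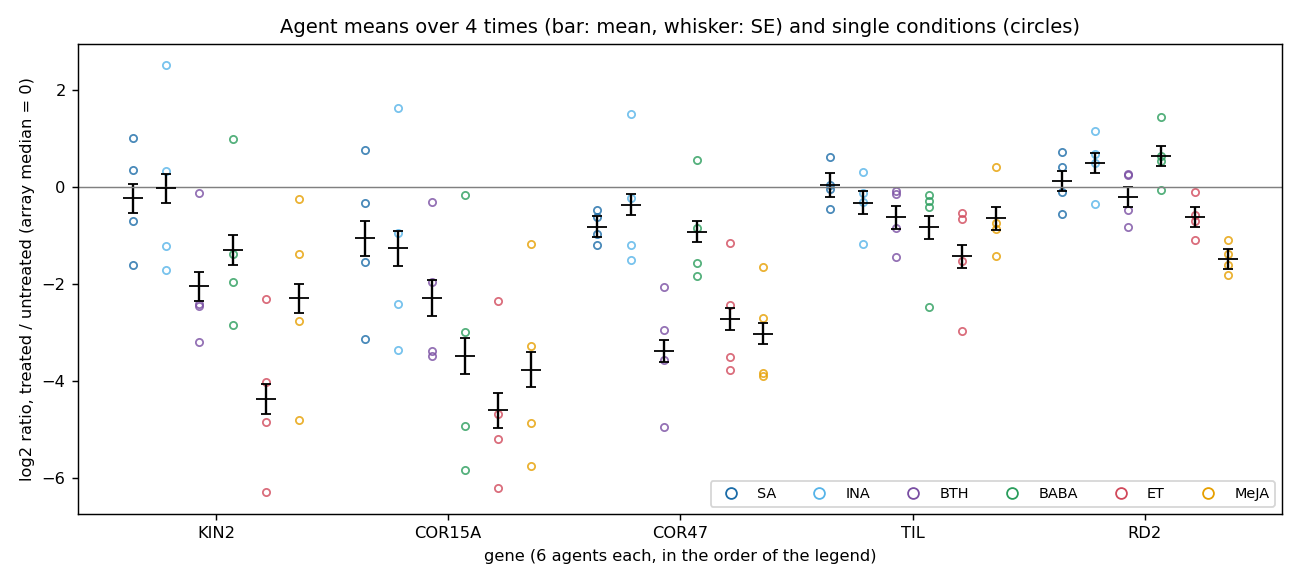
Log2 ratio of treated over untreated RNA (vertical axis, array median = 0) for each gene and agent: circles are the 4 harvest times, the black bar is the mean over them and its whisker the SE of the fit. The COR47 means split into BTH, ET and MeJA below -2.5 and SA, INA and BABA above -1, while the COR15A means form a gradual series from -1.06 to -4.61.

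TIL, the lipocalin, was lower by a smaller margin. Its mean was -1.43 ± 0.24 under ET, -0.84 under BABA, -0.65 under MeJA and -0.63 under BTH, all lower calls with the same SE (limma, adjusted p = 2.3e-05, 0.0035, 0.027 and 0.027). INA gave -0.33 and SA 0.03, which did not pass (adjusted p = 0.235 and 0.900). No neighbours in this order differed, and 3 of the 15 pairs of agents did: ET against SA (-1.47 ± 0.34), ET against INA (-1.10 ± 0.34) and BABA against SA (-0.87 ± 0.34), with adjusted p of 0.0011, 0.013 and 0.045. The second was lost in the deposited values (adjusted p = 0.104), and the third with 1 spread (adjusted p = 0.236) and after quantile normalization (adjusted p = 0.133).

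The TIL means hide a time course. At 10 h the ratio was lowest under ET (-2.98) and BABA (-2.47), then BTH (-1.44), MeJA (-1.42), INA (-1.17) and SA (-0.04). At 24 h it was -0.67, -0.30, -0.14, -0.74, -0.13 and -0.45 in the same order. SA was the agent without a dip, and in the other 5 the 24 h value was the higher of the pair. Over the 6 agents, 24 h exceeded 10 h by 1.18 ± 0.28 (limma, adjusted p = 0.0019), a contrast picked after the values were seen. That contrast was called higher in 15% and lower in 13.3% of the 180 tested genes. In the deposited values, without centring, the difference was 0.85 and was not called (adjusted p = 0.132). Without the 10 h harvest the TIL means under BTH, BABA and MeJA were -0.36, -0.30 and -0.40 and none passed, the smallest adjusted p being 0.216. Without the 5 h harvest those under BTH (-0.56) and MeJA (-0.58) did not pass either, nor did MeJA without 24 h (-0.62). After centring on TUA5 TIL turned to 0.73 under BTH (adjusted p = 0.022) and 0.27 under MeJA, and the BABA call was lost (adjusted p = 0.081), as it was with 1 spread (adjusted p = 0.0503). In the deposited values the means under BABA, MeJA and BTH were -0.47, -0.36 and -0.32 and none passed, the smallest adjusted p being 0.238.

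RD2, the universal stress protein gene, stood apart from the others. Under MeJA it gave -1.39, -1.11, -1.62 and -1.82 at 2, 5, 10 and 24 h, and under ET -0.59, -0.10, -0.70 and -1.10. BABA gave -0.07, 1.44, 0.62 and 0.54, and INA 1.14, 0.68, 0.49 and -0.36. The values under SA ran from -0.56 to 0.72 and those under BTH from -0.84 to 0.26. At each of the 4 times MeJA was the lowest of the 6 agents.

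The RD2 mean was -1.48 ± 0.21 under MeJA (limma, adjusted p = 2.8e-06) and -0.63 under ET (adjusted p = 0.013), both lower calls. It was higher under BABA (0.63, adjusted p = 0.0094) and INA (0.49, adjusted p = 0.044), with no call for SA (0.12) or BTH (-0.21). With arrays centred on their median, no other member had a higher call. On TUA5, KIN2 (0.92, adjusted p = 0.026) and TIL (1.20, adjusted p = 0.00080) were higher calls under SA, KIN2 (0.83) and COR47 (0.52) under INA, and TIL under BTH. In the deposited values TIL under SA was one (0.83, adjusted p = 0.026). RD2 under SA became a higher call in the deposited values (0.91, adjusted p = 0.016) and on TUA5 (1.28, adjusted p = 0.00022). Under BTH, RD2 turned to a higher call on TUA5 (1.15, adjusted p = 0.00048). MeJA and ET differed by -0.86 ± 0.29 (adjusted p = 0.037), a call lost in the deposited values (adjusted p = 0.070) and on TUA5 (-0.30, adjusted p = 0.596), and the other neighbours in the order did not differ. The ET mean kept direction and call in 14 of 19 alternatives. It turned to 0.016 in the deposited values, and its call was lost on TUA5 (-0.26, adjusted p = 0.410) and without 10 h or 24 h. The INA call was lost in 9 of 19 alternatives, among them those without 2, 5 or 10 h and without the first repeat arrays, with adjusted p from 0.060 (second spot) to 0.217 (without 2 h). The BABA call was lost without 5 h (0.36, adjusted p = 0.216), with 1 spread (0.44, adjusted p = 0.079) and after quantile normalization (0.39, adjusted p = 0.122). Centred on TUA5, the MeJA mean was -0.56 and no longer passed (adjusted p = 0.061). MeJA was below SA, INA and BABA by 1.60 to 2.11, and these 3 differences passed in the deposited values, on TUA5, with 1 spread and after quantile normalization.

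Counted by agent, lower calls reached 5 of 5 members under ET and under MeJA, 4 under BTH and under BABA, 2 under SA and 1 under INA. Among all 180 tested genes, 21.7% were called lower under ET, 23.9% under MeJA, 28.3% under BTH, 32.8% under BABA, 35.6% under SA and 27.2% under INA. Higher calls were 1 of 5 under BABA, beside 33.9% of all tested genes, and 1 of 5 under INA, beside 32.8%. The median of the 5 means was -2.72 under ET, -2.30 under MeJA, -2.05 under BTH, -0.92 under BABA, -0.33 under INA and -0.24 under SA. The median of all tested genes lay between -0.04 and 0.11. The members were picked with earlier results of these data known, so these counts describe the 5 genes only.

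A test that the 6 agents had equal means was passed by all 5 members (limma F-test, adjusted p from 1.3e-08 for COR47 to 0.0090 for TIL), and by 86.1% of all tested genes. Of the 15 pairs of agents, 12 differed for KIN2, 9 for COR47, 9 for RD2, 8 for COR15A and 3 for TIL. Among all tested genes, SA differed from BTH in 40.6%, from BABA in 38.9%, from ET in 56.7% and from MeJA in 58.3%. The shares against INA were 33.9% for BTH, 17.8% for BABA, 34.4% for ET and 50% for MeJA. BTH differed from BABA in 46.7%, from ET in 23.9% and from MeJA in 34.4%, BABA from ET in 46.1% and from MeJA in 58.3%, and ET from MeJA in 21.1%. The doses differed between agents, so treatments were compared and not equal amounts. SA and INA, the pair with the fewest calls among all tested genes (6.67%), differed in none of the 5 members. The intervals of those 5 differences reached down to -1.27 (COR15A) and up to 1.0998 (COR47). For each gene, a difference inside its own interval was not excluded. Of the 41 member differences that passed, 38 also passed with the same sign after centring on TUA5 and 32 in the deposited values. With arrays scaled to 1 spread 34 did, and after quantile normalization 33, where COR15A kept 4 of its 8. RD2 between BABA and BTH turned sign after centring on TUA5, from 0.84 to -0.26.

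In the 21 conditions with 1 array, the place of a gene among the other named genes does not depend on how the array is centred. In the 3 conditions with 2 arrays, INA at 24 h among them, it can depend on it, since some genes have a value on only 1 array. COR15A was among the lowest 10 genes in 15 of 24 conditions, KIN2 in 11, COR47 in 9, TIL in 1 and RD2 in none. At 2 h of INA, by contrast, KIN2 stood at percentile 96.3, COR15A at 88.6 and COR47 at 86.5, of 285 genes with a value. By 24 h of INA the 3 genes stood at percentiles 1.94, 0.177 and 3.71. The BABA arrays had the fewest named genes with a value (183 to 228), and their percentiles are the coarsest.

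**Figure D3:**
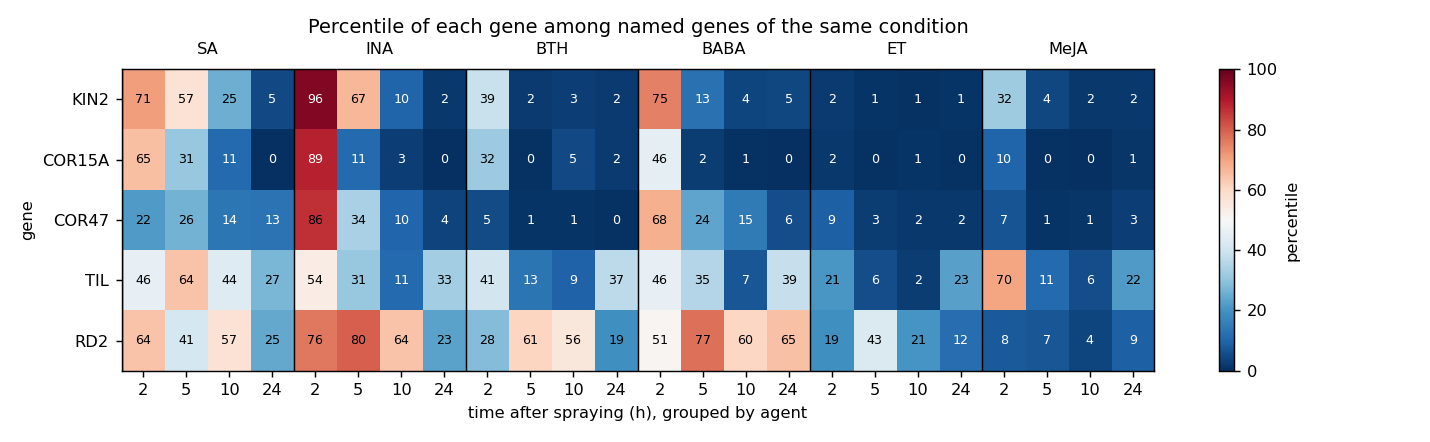
Percentile of each gene (rows) among the named genes with a value in the same condition, by agent and hours after spraying (columns), low percentiles being low ratios. KIN2, COR15A and COR47 pass from above percentile 86 at 2 h of INA to below percentile 5 at 24 h, and TIL is at its lowest percentile at 10 h under INA, BTH, BABA, ET and MeJA.

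Late harvests (10 and 24 h) were then set against early ones (2 and 5 h) over all 6 agents. KIN2 ranged from -4.03 through a median of -0.19 to 2.50 over the 12 early conditions, and from -6.30 through -2.58 to -0.71 over the 12 late ones. COR15A ranged from -4.69 through -1.06 to 1.62 early and from -6.20 through -4.12 to -1.55 late. COR47 ranged from -2.94 through -1.01 to 1.49 early and from -4.96 through -2.67 to -0.98 late. The ranges overlapped for each gene because agents differ, but within every agent the late mean was the lower one for all 5 genes.

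Late minus early was -2.60 ± 0.47 for COR15A, -2.30 ± 0.39 for KIN2 and -1.56 ± 0.25 for COR47, and the 3 genes fell (limma, adjusted p = 0.00054, 0.00034 and 0.00033). TIL had -0.71 ± 0.31 and RD2 -0.42 ± 0.22, which did not pass (adjusted p = 0.104 and 0.157). The 3 calls stand beside lower calls for 16.1% and higher calls for 8.89% of the tested genes, and the median over all tested genes was -0.00075. COR15A and KIN2 were the lowest and second lowest of the 180 genes in this contrast. From 2 h to 24 h the difference was -3.87 ± 0.42 for COR15A, -3.32 ± 0.35 for KIN2 and -2.26 ± 0.26 for COR47, lower at 24 h under 6 of 6 agents for each (adjusted p up to 3.1e-07, with 23.3% of tested genes called lower and 18.9% higher).

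The first step was the largest on average for all 3, without a test between steps. From 2 to 5 h COR15A fell by 2.35 and KIN2 by 1.73 (adjusted p = 0.00047 and 0.0012), and COR47 by 1.04 (adjusted p = 0.0058), with 9.44% of the tested genes called lower and 10.6% higher. From 5 to 10 h the differences were -1.33, -1.27 and -0.87 in the same order (adjusted p = 0.050, 0.026 and 0.036). From 10 to 24 h they were -0.18, -0.32 and -0.35, none past the threshold. TIL fell by 1.02 from 5 to 10 h in 6 of 6 agents (adjusted p = 0.026), where 7.22% of tested genes were called lower and 1.11% higher. RD2 fell by 0.87 from 5 to 24 h, also in 6 of 6 agents (adjusted p = 0.0066, beside 19.4% of tested genes lower and 13.9% higher).

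Whether the fall over time depended on the agent was asked by an F-test on the 6 late-minus-early differences. None of the 5 members passed (limma, smallest unadjusted p = 0.541, COR15A), nor did any of the 180 genes (0%), of which 7 had an unadjusted p under 0.05. Single agents had 2 early and 2 late conditions each, and their differences for COR15A ran from -3.80 (BABA) to -0.77 (BTH) with an SE of 1.16, so a dependence of this size could not be detected. No single agent's difference passed for any of the 5 genes (adjusted p from 0.080 upwards, limma), and calls among all tested genes were 1.11% under SA, 0.556% under BABA and under MeJA, and 0% under INA, BTH and ET. Among the 5 genes and 6 agents, unadjusted p-values were under 0.05 for 4 agents in KIN2, 4 in COR15A, 5 in COR47 and 0 in TIL and RD2. The share of all tested genes under that unadjusted limit was not computed, so these counts cannot set the members apart from other genes.

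**Figure D4:**
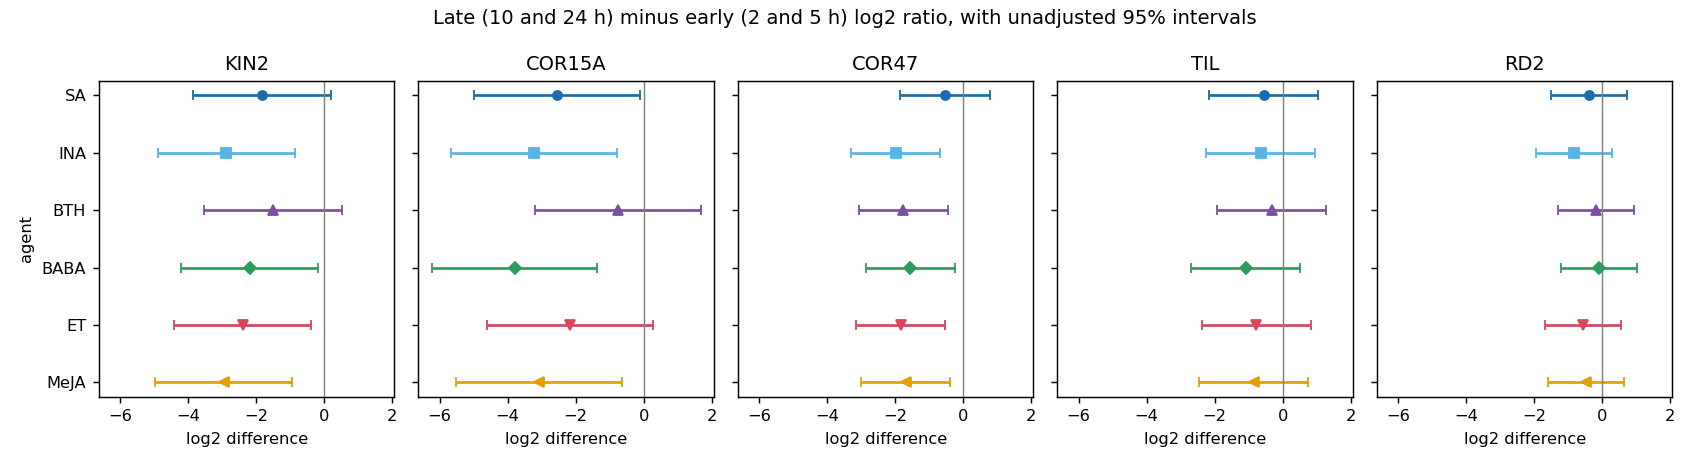
Difference in log2 ratio between late (10 and 24 h) and early (2 and 5 h) conditions (horizontal axis) for each agent (rows) and gene (panels), with 95% intervals not adjusted for multiple tests. All 30 points lie below 0, and the intervals of different agents overlap within each gene.

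A ratio moves when either RNA does. The labels do not state whether the untreated RNA was harvested anew at each time or shared between arrays. A change of these genes in the sprayed plants and one in the untreated plants over the day therefore cannot be told apart, and neither can counts of cells and RNA per cell in whole shoots.

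The 5 profiles over the 24 conditions were compared as a description, since conditions of 1 agent and of 1 time share treatments and possibly their reference. KIN2 and COR15A were most alike (Pearson r = 0.90, Spearman rho = 0.91), followed by KIN2 and COR47 (0.81 by both measures). With each agent's mean removed the values of r were 0.93 and 0.90. TIL and RD2 were the least alike (r = 0.10). Of 136 other genes with values in all conditions, the 3 nearest to KIN2 were COR15A, COR47 and TIL, all of them members. The nearest to RD2 was none of these but AT4G20830, a berberine bridge enzyme-like gene (r = 0.92), then AT4G38550 (0.88) and AT4G05150 (0.86). COR15A had AT5G16010 and AER, an alkenal reductase gene, at r = 0.73 each after KIN2. COR47 had AT1G79245 (0.77) and AT4G20840 (0.75) after KIN2, and TIL had AT5G16010 (0.72) between COR15A and KIN2.

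KIN1 and COR15B, the neighbouring homologs of KIN2 and COR15A on the chromosome, are also on the array, with values in 19 and 17 of 24 conditions and so without a test. KIN1 followed KIN2. It differed from KIN2 by -1.58 to 0.50 with a median of -0.42, and reached -6.44 at 10 h of ET, where KIN2 had -6.30. At 2 h of INA KIN1 stood at 2.08.

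COR15B was the lower of its pair in 15 of 17 conditions. Under BTH at 2 h COR15B was at -4.32 and COR15A at -0.33, and under MeJA they were at -4.30 and -1.17. Under ET the pair was at -4.18 and -2.35, and under BABA at -2.11 and -0.18. SA and INA gave COR15B 0.16 and 0.97, close to COR15A at 0.75 and 1.62. BTH at 10 h gave -5.53 and -1.97. By 24 h of ET the pair differed by 0.41 and by 24 h of MeJA by 0.81, with COR15B the lower. Such homologous cDNAs can share labelled target on a spotted array, and the extent was not tested.

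**Figure D5:**
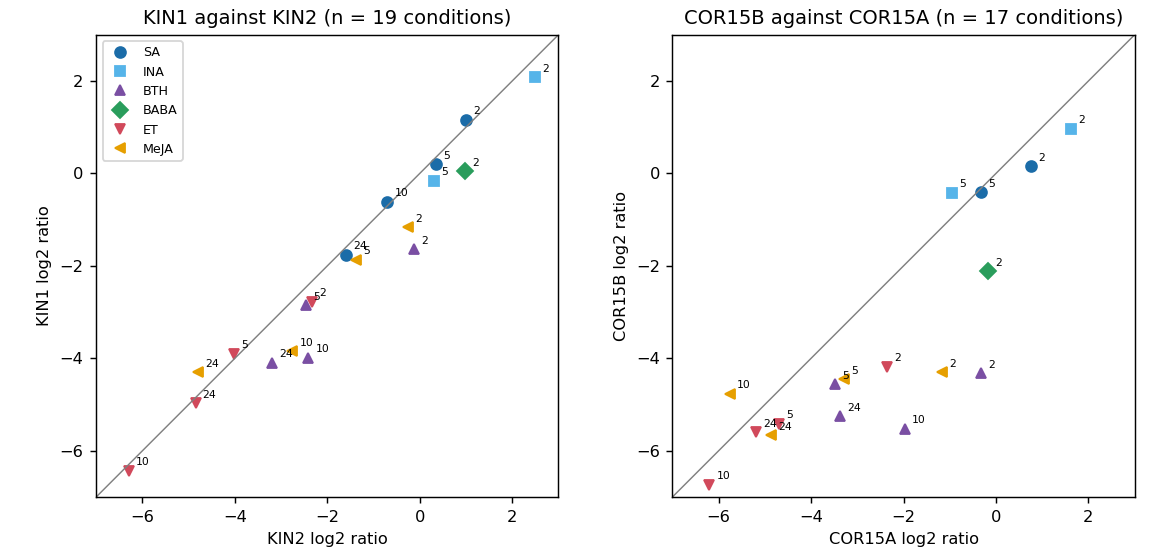
Log2 ratio of KIN1 against KIN2 (left, 19 conditions) and of COR15B against COR15A (right, 17 conditions), with the hours after spraying beside each point and the line of equal ratios in grey. KIN1 stays within 1.58 of the line, while COR15B lies farthest below it under BTH at 2 and 10 h and under MeJA at 2 h.

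Of 65 further genes of cold, dehydration and ABA responses on a list drawn up by locus, 3 were among the named spots, and the others were not analysed here. ALDH7B4, an aldehyde dehydrogenase gene induced by drought and salt, was the 1 of them with enough values for a test. It rose under SA, with 1.69, 2.13, 2.22 and 1.58 at the 4 times and a mean of 1.91 ± 0.25 (limma, adjusted p = 6.7e-07, beside 37.2% of tested genes called higher). Its means under the other agents lay between -0.20 and 0.38 and did not pass. STZ, a zinc finger repressor gene of cold and salt responses, had values in 16 conditions, all above 0, from 0.71 to 4.0015. It had no value at 24 h under any agent, so its ratio at that harvest is unknown. HIS1-3, a linker histone gene induced by drought, had 13 values: 0.81 under SA, -0.43 under INA, and -0.99 to -3.08 under BTH, ET and MeJA.

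The 2 spots of a gene gave close readings. Their median absolute difference over arrays was 0.15 for KIN2, 0.33 for COR15A, 0.14 for COR47, 0.12 for TIL and 0.11 for RD2. The widest gap was 2.15, for COR15A at 24 h of BABA, where the spots read -6.00 and -3.85. The first INA 10 h array carries 2 h in its source name and 10 h in its title and protocols, and was used as 10 h. Counted as 2 h instead, COR47 under INA became a lower call (-0.67, adjusted p = 0.010).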

How the data were processed

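Gene expression was measured in Arabidopsis thaliana shoots on 27 spotted 2-dye arrays of 2560 spots. The authors deposited 1 log ratio per spot, taken here as log2 of Cy5 (treated) over Cy3 (untreated). Per the labels, spots were quantified as pixel medians with ScanArray Express 3. Neither log base nor background correction, spot filter or normalization is given in the sources used here. No intensities were used, and missing values were not filled in. One closing line without values was dropped.

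Gene names came from GEO's platform annotation, brought up to date by gene number in RefSeq (TAIR10.1). There 415 of 416 genes matched, while 1676 spots are unnamed. Coordinates were not used. Arrays were centred on their median, spots of a gene averaged, then arrays of a condition averaged. Genes with values in at least 20 of 24 conditions and 3 of 4 times of each agent were fitted (180 genes).

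R 4.3.3 and limma 3.58.1 were used. Each gene was fitted by least squares with a mean per agent and time terms summing to 0, or with a mean per agent and phase, followed by limma's moderation of the variances. Two-sided p-values were adjusted by Benjamini-Hochberg over all tested genes of a comparison, with a threshold of 0.05. The fits were checked on simulated data. The members, the gene lists and the tests were chosen with earlier results of these data known. Named genes are the members, their homologs, listed genes with a value, the 3 genes nearest to each member and TUA5. Alternatives were other centrings and scalings, single spots, each repeat array left out, a replicate block, the other reading of the INA 10 h label, each time left out, no time term, other filters, all spots and trended variances.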

Additional observations from a re-analysis of the deposited data

Results flagged for a closer look

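Effects at early and late harvests differed by the test of the difference itself for 3 of the 5 genes. Late minus early over the 6 agents was -2.30 for KIN2, -2.60 for COR15A and -1.56 for COR47. For TIL the effects at 24 h and at 10 h differed by 1.18, a contrast chosen after its values were seen. No condition held enough samples to look for single arrays far from the others.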

How the results depend on the processing

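The late-against-early calls were among the steadiest. They stood at 3 to 4 members in all 25 alternatives, which include each agent and each time left out, with the COR15A difference between -3.77 and -1.43. Without 2 h the calls came nearer the threshold (limma, adjusted p = 0.0398 for KIN2 and COR15A and 0.032 for COR47). Lower calls under ET stayed at 4 or 5, and the test between agents at 4 or 5. Of 570 alternative values of the 30 agent means, 493 kept direction and side of the threshold, 46 lost a call, 6 gained one and 25 turned. In the deposited values lower calls numbered 0 under SA, 0 under INA and 2 under BABA. After centring on TUA5 they numbered 3 under MeJA, 2 under BTH and 0 under SA and INA. Arrays scaled to 1 spread gave 1 under SA and 2 under BABA. Without a term for time they were 0 under SA, 0 under INA and 1 under BABA. The count under INA was 2 without 2 h or with the first 10 h array as 2 h, and 0 without 24 h, when SA had 1. The cause was not tested.

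Means that turned in the deposited values were KIN2 (0.55) under SA, KIN2 (0.42), COR47 (0.24) and TIL (0.28) under INA, RD2 under BTH (0.10) and RD2 under ET (0.016). On TUA5 they were KIN2 (0.92), COR15A (0.099) and COR47 (0.34) under SA, KIN2 (0.83), COR47 (0.52) and TIL (0.55) under INA, TIL (0.73) and RD2 (1.15) under BTH, and TIL under MeJA (0.27). Means near 0 also turned: TIL under SA on first spots (-0.084) and without 5 h (-0.16), RD2 under SA without 2 h (-0.085), and KIN2 under INA on second spots (0.062), in the range without replicate 1 or 2 (-0.058 to 0.093), without 10 h (0.36) and without 24 h (0.53). Without 24 h, KIN2 under SA (0.22), COR47 under INA (0.015) and RD2 under BTH (0.0044) turned as well. Leaving out the repeat arrays numbered 1 or 2 changed none of the counts of lower calls, but the higher call of RD2 under INA was lost without replicate 1 (0.41, adjusted p = 0.0998). With the 27 arrays fitted singly and the replicate number as a block, all 45 results kept direction and call (KIN2 under BTH -2.14). The numbers mark repeat arrays of the same RNA and pair no samples. There are no intensities, so what signal over background limits is unknown.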
